A study of Mus musculus with 24 samples.

Results

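The Slc25 genes encode the mitochondrial carrier family, and 44 of the 24239 genes in the deposited heart table belong to it by the rule used here, which took every row whose symbol starts with Slc25a apart from 2 that are not reported. Of these, 36 had a mean normalized count of at least 50 over the 24 hearts and are named below as the expressed members. RNA was sequenced from whole hearts of male mice, 6 in each of 4 groups, 12 weeks after transverse aortic constriction (TAC), a surgical narrowing of the aorta that overloads the left ventricle, or after Sham surgery. In cSirt5-/- mice, Sirt5, the gene of a mitochondrial deacylase, was deleted with the Myh6-cre transgene, which is active in cardiomyocytes. Control mice carried the Sirt5 transgenic allele without the recombinase, on a C57BL6J background, so that the deletion and the presence of Cre cannot be told apart. The groups are control Sham, control TAC, cSirt5-/- Sham and cSirt5-/- TAC, and the ages of the mice are not given in the sources used here.

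Mitochondrial carriers are small membrane proteins that move nucleotides, phosphate, amino acids, carboxylates, cofactors and metal ions across the inner mitochondrial membrane, mostly by exchanging 1 solute for another. In heart muscle the ADP/ATP and phosphate carriers feed ATP synthase and export its product, while the aspartate/glutamate and oxoglutarate carriers form the malate-aspartate shuttle, which brings the reducing power of cytosolic NADH into the mitochondrion. The carriers are encoded in the nucleus, made in the cytosol and imported into mitochondria.

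Depth was 22.5 to 35.8 M (mega) reads per library, with 11.2 to 28.4% of them from mitochondrially encoded genes. Control TAC replicate 2 held 23.4% ribosomal and 7SK RNA and the other libraries 0.509 to 4.19%. The libraries fell into 2 sets by a ratio of gene-level counts within 762 opposite-strand gene pairs, with 10 libraries in set 1 and 14 in set 2. Antisense reads were not counted directly, and the genes' own expression enters this ratio. Set 1 held 4 of the cSirt5-/- Sham hearts and 2 of each other group. Sirt5 was 388 to 807 normalized counts in control Sham, 565 to 796 in control TAC and 85.6 to 259 in cSirt5-/- Sham hearts. However, the libraries labelled cSirt5-/- TAC replicates 2 and 4 held 886 and 499. Replicate 2 lay above every control heart, and replicate 4 inside the control Sham range but below every control TAC heart. Calls and main values that involve cSirt5-/- TAC are therefore given with and without these 2 libraries. Adult skeletal myosins Myh1 and Myh2 did not exceed 2.87 and 4.51 normalized counts in any heart, whereas the cardiomyocyte markers were abundant. The skeletal muscle list also held Tnnt3, at 4.31 to 28.1, and Ckm, at 25509 to 70559 normalized counts. The part of skeletal muscle was not tested.

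The level of the carriers spanned a wide range, led by those of ATP exchange. Compared per kilobase (kb) of the canonical transcript, the heart-type ADP/ATP carrier Slc25a4 stood at 60511 normalized counts per kb (mean of 24 hearts), followed by the phosphate carrier Slc25a3 at 14012, the oxoglutarate carrier Slc25a11 at 6699 and the broadly expressed ADP/ATP carrier Slc25a5 at 5196. Slc25a34, a carrier without an assigned substrate here, came next at 1241, ahead of the aspartate/glutamate carrier Slc25a13 at 959, the glutathione-linked carrier Slc25a39 at 957 and the second aspartate/glutamate carrier Slc25a12 at 788. This order rests on the length used: with the union of all annotated exons the first 6 were Slc25a4, Slc25a3, Slc25a5, Slc25a11, Slc25a34 and Slc25a12.

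**Figure D1:**
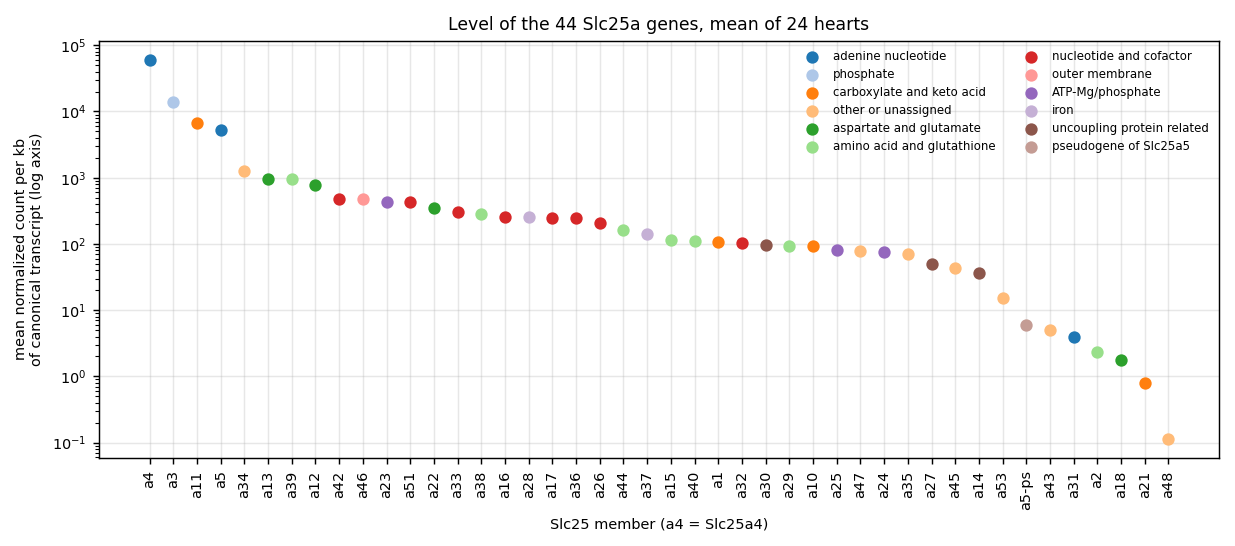
Mean normalized count per kb of canonical transcript for the 44 Slc25a genes over 24 hearts, on a log axis, coloured by role. Slc25a4 lies highest, and the 8 members under a mean of 50 form the right end.

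Slc25a4 alone made up 61.2 to 63.5% of the summed per-kb level of these 44 members in control Sham hearts and 57.7 to 62.7% in control TAC hearts. The shares were 60.8 to 67.8% in cSirt5-/- Sham and 60.2 to 68.4% in cSirt5-/- TAC hearts, so that the 4 groups overlapped. The share of Slc25a5 was 3.59 to 6.11% in control Sham hearts and 5.37 to 8.35% in control TAC hearts, and it was 3.74 to 5.67% and 4.64 to 6.996% in the corresponding cSirt5-/- groups.

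Among expressed members the lowest mean was 66.5 for Slc25a14, an uncoupling protein relative, and Slc25a53 fell just outside with 49.97. The other 7 members under 50 were Slc25a31, a testis-type ADP/ATP carrier (8.27), Slc25a43 (5.67), the pseudogene Slc25a5-ps (4.89), the glutamate carrier Slc25a18 (4.80), the ornithine carrier Slc25a2 (3.11), the oxodicarboxylate carrier Slc25a21 (2.05) and Slc25a48 (0.392). Slc25a5-ps resembles Slc25a5 in sequence, so that its few reads could come from either gene. Within a group, the coefficient of variation of the expressed members had a median of 10.6% (control Sham), 14.04% (control TAC), 14.6% (cSirt5-/- Sham) and 18.05% (cSirt5-/- TAC). NAD carrier Slc25a51 was the steadiest in control Sham at 2.14%, and ATP-Mg/phosphate carrier Slc25a25 the most variable at 40.8%.

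In control hearts, carriers of phosphate, coenzyme A, glutamate and other substrates were lower following TAC, by up to 1.06 on the log2 scale. The main limma fit called no carrier higher. A gene was called at a Benjamini-Hochberg adjusted p under 0.1 in the limma fit over all 24239 genes. By this rule 11 of 44 members were lower and 0 were higher following TAC, while 6.91% of all genes were lower and 6.99% were higher. With the added limit of 1.5-fold, 4 members were differentially expressed (DEGs), against 7.03% of all genes in both directions together. In other settings 1 member was called higher, by edgeR, by DESeq2, and by limma with library set or replicate number as a term. The same held for limma on genes with a mean of at least 10. It also held when control Sham replicate 1, control TAC replicate 2 or cSirt5-/- TAC replicate 5 was left out. Among the 36 expressed members the median log2 fold change was -0.12, beside 0.00 for the 12167 genes with a mean of at least 50. In whole-heart RNA, fewer cells of a type and less RNA per cell cannot be told apart.

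**Figure D2:**
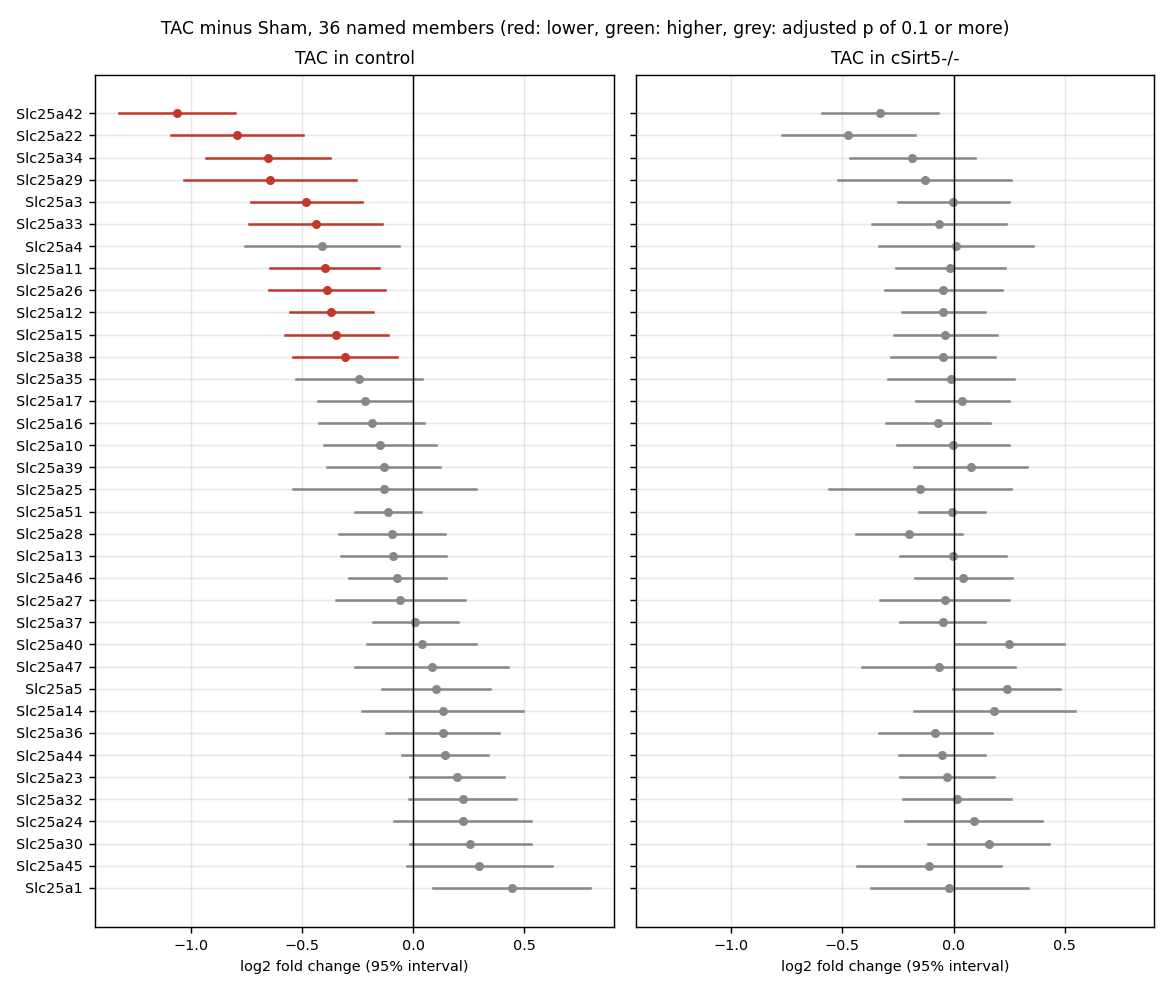
Log2 fold change of TAC against Sham with its 95% interval for the 36 expressed members, in control (left) and cSirt5-/- hearts (right), in the order of the control values. Slc25a42 lies lowest in control at -1.06, and no member is coloured as called in cSirt5-/- hearts.

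Cofactor carriers held the largest fall. Slc25a42, which imports coenzyme A into mitochondria (chromosome 8, 70636990 to 70664955 on GRCm39), counted 1806 to 2681 (median 2219.8) in control Sham hearts and 763 to 1337 (median 1074) in control TAC hearts. Every control TAC heart lay below every control Sham heart, and the log2 fold change was -1.06 ± 0.13 (SE, n = 6 per group; limma adjusted p = 4.13e-06). It was -1.30 within library set 1 and -0.94 within set 2. Slc25a26, the S-adenosylmethionine carrier, counted 638 to 859.8 (median 806) in control Sham hearts and 409 to 734 (median 648) in control TAC hearts, with overlap, and fell by 0.39 on the log2 scale (adjusted p = 0.05). Slc25a33, a pyrimidine nucleotide carrier, counted 453 to 656 (median 559.6) and 319 to 677 (median 392.5) and fell by 0.44 (adjusted p = 0.0542). Its control TAC range overlapped that of Sham because 1 heart, replicate 4, stood at 677.

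The other 5 of 8 nucleotide and cofactor carriers were not called. They were Slc25a16 (-0.19), the peroxisomal carrier Slc25a17 (-0.22), the NAD carrier Slc25a51 (-0.11), the folate/FAD carrier Slc25a32 (0.22) and the second pyrimidine nucleotide carrier Slc25a36 (0.13), all as log2 fold changes.

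Carriers of glutamate and aspartate were lower in 2 of 3 expressed members. Slc25a22, which brings glutamate into the matrix (chromosome 7, 141009657 to 141017805), counted 924 to 1713 (median 1293) in control Sham hearts and 579 to 975 (median 699.6) in control TAC hearts. The ranges met only at the highest TAC heart, replicate 2, which held 975, and the log2 fold change was -0.79 ± 0.15 (SE, n = 6 per group; limma adjusted p = 0.000517). It was -1.03 in set 1 and -0.67 in set 2. Slc25a12, whose protein exchanges aspartate for glutamate and is the main form in muscle, counted 5415 to 6129.9 (median 5788) and 3379.8 to 5700.0 (median 4423) with overlap, and fell by 0.37 (adjusted p = 0.00787). Slc25a13, the related carrier known as citrin, was at -0.09 with an interval of -0.33 to 0.15 and was not called. Per kb, the log2 ratio of Slc25a12 to Slc25a13 was -0.20 ± 0.08 in control Sham hearts and -0.48 ± 0.13 in control TAC hearts (SD, n = 6).

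Of the 3 carboxylate carriers, Slc25a11, the oxoglutarate/malate exchanger of the shuttle, counted 11134 to 13820.3 (median 12404) in control Sham hearts and 6556 to 11540.5 (median 9970.1) in control TAC hearts, with overlap, and fell by 0.40 on the log2 scale (adjusted p = 0.0312). The citrate carrier Slc25a1 was at 0.44 (interval 0.09 to 0.80), not called by limma but called by the DESeq2 Wald test (adjusted p = 0.0381). The dicarboxylate carrier Slc25a10 was at -0.15.

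The phosphate carrier Slc25a3 (chromosome 10, 90952436 to 90959921) counted 39064 to 46981 (median 42870.5) in control Sham hearts and 23009 to 36607 (median 31402) in control TAC hearts, without overlap. Its log2 fold change was -0.48 ± 0.12 (SE, n = 6 per group; limma adjusted p = 0.0102), with -0.76 in set 1 and -0.34 in set 2. Slc25a4 (chromosome 8, 46659834 to 46664321) counted 110125 to 138004 (median 121763) and 63515 to 112698 (median 96943), a log2 fold change of -0.41 with an interval of -0.75 to -0.06. Only 1 of the control TAC hearts fell inside the Sham range. limma did not call it (adjusted p = 0.14) and DESeq2 did (adjusted p = 0.043). Slc25a5 was at 0.10, and the per-kb log2 ratio of Slc25a4 to Slc25a5 was 3.79 ± 0.32 in control Sham hearts and 3.28 ± 0.27 in control TAC hearts (SD, n = 6).

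Amino acid carriers were lower in 3 of 6 expressed members. Slc25a29, a carrier of basic amino acids, counted 201 to 372 (median 225) in control Sham hearts and 124 to 224 (median 142) in control TAC hearts, with overlap, at a log2 fold change of -0.64 ± 0.19 (SE, n = 6 per group; limma adjusted p = 0.0274). The 2 library sets differed in its value, -1.32 in set 1 and -0.30 in set 2, a difference that was not tested. Slc25a15, the ornithine carrier of the urea cycle, fell by 0.34 from 411 to 506 (median 468) to 284 to 430.7 (median 372) (adjusted p = 0.0497). Slc25a38, the glycine carrier of heme synthesis, fell by 0.31 from 506 to 622 (median 583) to 354 to 531 (median 475) (adjusted p = 0.0881). Both overlapped between the groups. The glutathione-linked carriers Slc25a39 and Slc25a40 were at -0.13 and 0.04, and the branched-chain amino acid carrier Slc25a44 was at 0.14.

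Slc25a34 (chromosome 4, 141346135 to 141351132) counted 3682 to 5225 (median 4555) in control Sham hearts and 1779 to 3714 (median 2963) in control TAC hearts, where 1 TAC heart reached into the Sham range. Its log2 fold change was -0.65 ± 0.14 (SE, n = 6 per group; limma adjusted p = 0.00189), with -1.005 in set 1 and -0.48 in set 2. The remaining expressed members were not called following TAC in control hearts. They were the mitochondrial iron importers Slc25a28 (-0.09) and Slc25a37 (0.01), the ATP-Mg/phosphate carriers Slc25a23 (0.20), Slc25a24 (0.22) and Slc25a25 (-0.13), the uncoupling protein relatives Slc25a14 (0.13), Slc25a27 (-0.06) and Slc25a30 (0.26), the outer membrane protein Slc25a46 (-0.07), and Slc25a35 (-0.24), Slc25a45 (0.30) and Slc25a47 (0.08).

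**Figure D3:**
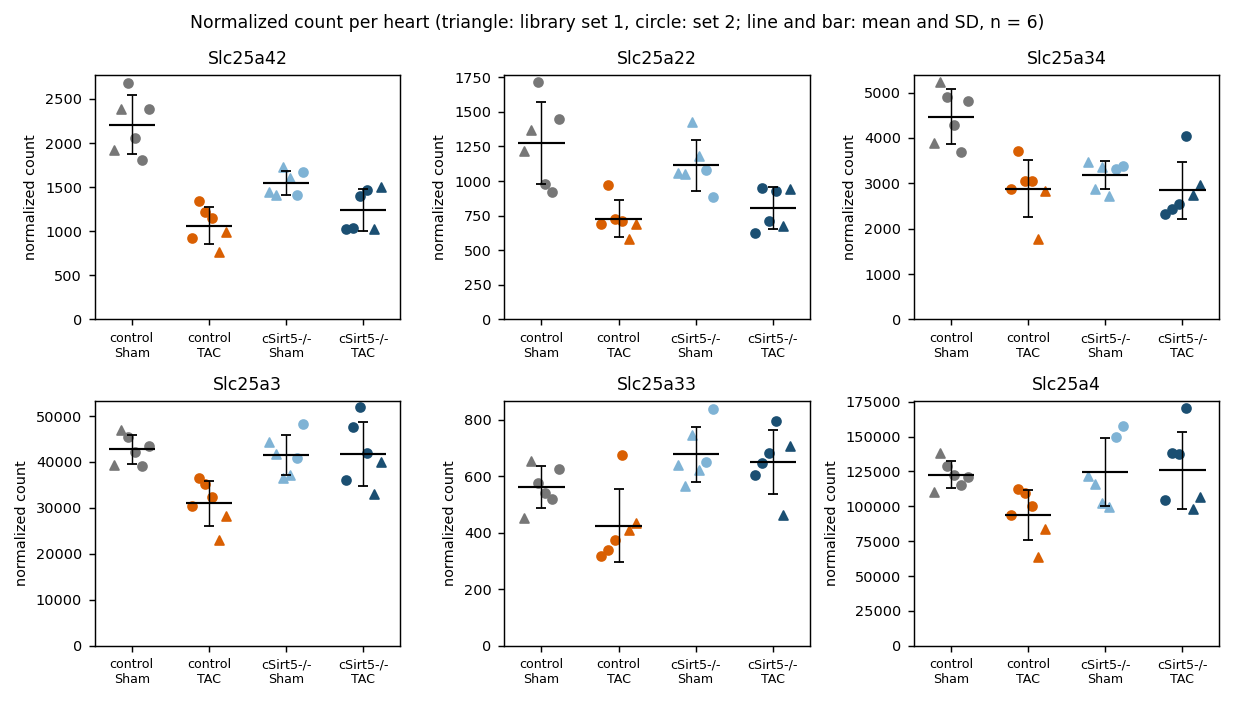
Normalized count of 6 members in each heart of the 4 groups, with triangles for library set 1, circles for set 2, and the mean and SD (n = 6). Slc25a42 and Slc25a3 show no overlap between control Sham and control TAC hearts.

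All 11 calls had the same sign within each library set, where 7 of the 11 were called in set 1 (1605 of all genes) and 2 in set 2 (2115 of all genes). The library labels end in a number, taken here as an animal number, though the labels do not say what it is. Cuts at 200 and 500, also chosen here, made the series of animal numbers. In set 1 the 2 control Sham hearts had numbers between 200 and 500 and the 2 control TAC hearts numbers over 500. TAC and the series therefore cannot be told apart there, whereas all control hearts of set 2 had numbers under 200. With the series as a term 7 of the 11 were called, without Slc25a15, Slc25a26, Slc25a29 and Slc25a38. Slc25a42 and Slc25a22 were called in each of the 38 other settings tried. Of the 24 fits that each left out 1 heart, all called Slc25a3, Slc25a12, Slc25a22, Slc25a29, Slc25a34 and Slc25a42, 23 called Slc25a11, 21 called Slc25a15 and Slc25a26, 19 called Slc25a33 and 16 called Slc25a38. Leaving out control TAC replicate 5 gave 7 calls, and leaving out replicate 2, with its high share of ribosomal RNA, gave 12. Of all genes these fits called 2436 and 3622, against 3371 over all hearts. Other features moved with TAC in control hearts. The summed level, in kilocounts of 1000 normalized counts, of the 9 cardiomyocyte markers was 2057 to 2427 in control Sham hearts and 1293 to 2215 in control TAC hearts, with 2 of 9 lower (Tnni3 -0.78, Pln -0.56) and 0 higher. For the 7 fibroblast markers it was 28.5 to 48.9 and 31.8 to 117 kilocounts, with 3 higher, and for the 6 macrophage markers 3.50 to 5.47 and 3.57 to 7.26 kilocounts, with 3 higher. Mitochondrially encoded genes took 21.4 to 24.7% of reads in control Sham hearts and 14.99 to 20.3% in control TAC hearts. Their part in the fall of the carriers was not tested.

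In cSirt5-/- hearts limma called 0 of 44 members following TAC, at a background of 0.573% of all genes higher, 0.718% lower and 0.672% DEGs. At an unadjusted p under 0.05 there were 5 members, edgeR called 0 and DESeq2 called 1, Slc25a22. Slc25a22 counted 881 to 1431 (median 1068) in cSirt5-/- Sham and 623 to 952 (median 821) in cSirt5-/- TAC hearts, with overlap, a log2 fold change of -0.47 ± 0.15 (SE, n = 6 per group; limma adjusted p = 0.147). Without the libraries labelled cSirt5-/- TAC replicates 2 and 4 it was -0.60 (adjusted p = 0.0869), and Slc25a40 was also called at 0.43 (adjusted p = 0.0367). Leaving out cSirt5-/- TAC replicate 4 alone gave 2 calls and cSirt5-/- Sham replicate 6 gave 1. Of all genes these fits called 464 and 443, against 313 over all hearts. Of other cell types, the 4 atrial markers had an unadjusted p under 0.05 in this comparison, with 0 called and log2 fold changes of -4.61 (Myl7), -4.14 (Sln), -2.43 (Myl4) and 1.44 (Nppa). The 4 adipocyte markers had a median of -1.76, with 0 called. Their part in the carrier values was not tested.

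Slc25a42 counted 1410.2 to 1732 (median 1529) in cSirt5-/- Sham and 1020.2 to 1504 (median 1218) in cSirt5-/- TAC hearts, with overlap, a log2 fold change of -0.33 with an interval of -0.59 to -0.07. Slc25a3 counted 36521 to 48235 (median 41301) and 33121 to 51868 (median 41011), at -0.00 with an interval of -0.25 to 0.25. For Slc25a4 the change was 0.01 with an interval of -0.34 to 0.36. Without the libraries labelled cSirt5-/- TAC replicates 2 and 4 the changes were -0.34 for Slc25a42, -0.06 for Slc25a3 and -0.15 for Slc25a4, none of them called. Over the 36 expressed members the log2 fold changes ran from -0.47 to 0.25, with a median of -0.03.

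Whether TAC acted differently in the 2 genotypes was tested as the interaction. limma called 0 of 44 members, with 0.0536% of all genes higher, 0.0413% lower and 0.0908% DEGs, and 5 members had an unadjusted p under 0.05. edgeR called 0 members and DESeq2 called 1, Slc25a42. Its interaction was 0.73 ± 0.18 on the log2 scale (SE, n = 6 per group; limma adjusted p = 0.142), a positive value meaning a smaller fall in cSirt5-/- hearts, and DESeq2 gave 0.73 (adjusted p = 0.0236). limma called it when control Sham replicate 1, control Sham replicate 5, control TAC replicate 2 or cSirt5-/- TAC replicate 5 was left out. Within library sets 1 and 2 the interaction was 0.99 and 0.60 and not called. Without the libraries labelled cSirt5-/- TAC replicates 2 and 4 it was 0.72 (adjusted p = 0.172), with 0 members called and 8 at an unadjusted p under 0.05. For the other 10 members called for TAC in control hearts, the interaction was not called in the main limma fit.

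After Sham surgery 5 of 44 members were lower in cSirt5-/- than in control hearts and 0 were higher, beside 1.55% of all genes lower and 2.23% higher. One member, Slc25a2, also passed the 1.5-fold limit, against 2.03% of all genes. Slc25a42 counted 1806 to 2681 (median 2219.8) in control Sham and 1410.2 to 1732 (median 1529) in cSirt5-/- Sham hearts, without overlap, at a log2 fold change of -0.50 ± 0.13 (SE, n = 6 per group; limma adjusted p = 0.0428). Slc25a34 counted 3682 to 5225 (median 4555) and 2716 to 3477 (median 3339), also without overlap, at -0.48 ± 0.14 (adjusted p = 0.0676). These 2 genes were also lower following TAC in control hearts, a comparison that shares the control Sham hearts.

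Slc25a46, an outer membrane protein involved in mitochondrial shape, counted 2207 to 2469 (median 2309.5) in control Sham and 1449 to 2124 (median 1924) in cSirt5-/- Sham hearts and fell by 0.34 (adjusted p = 0.092), and none of its cSirt5-/- Sham hearts reached the control Sham range. Slc25a51, the NAD carrier, counted 2023 to 2134 (median 2099) and 1638 to 2032 (median 1716) and fell by 0.25 (adjusted p = 0.0781), with 1 cSirt5-/- Sham heart inside the control range. Slc25a2 counted 1.07 to 6.31 (median 4.84) and 0.00 to 3.46 (median 0.478), so that its log2 fold change of -1.56 (adjusted p = 0.0748) rests on a few reads per heart.

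The number of calls after Sham depended on single hearts. It was 0 without control Sham replicate 3 or 6, and 1 without control Sham replicate 2 or 4 or cSirt5-/- Sham replicate 4. It was 2 without control Sham replicate 5 or cSirt5-/- Sham replicate 5 or 6, and 3 without cSirt5-/- Sham replicate 2. The calls of all genes, 915 over all hearts, moved too, to 515 and 293 without control Sham replicates 3 and 6. The others of these fits called 299 (without cSirt5-/- Sham replicate 6) to 1129 (without cSirt5-/- Sham replicate 2) of all genes. All 5 members kept their sign in each library set, with 0 called in set 1 and 2 in set 2, and 0 were called with the series of animal numbers as a term. The same settings called 0 of all genes in set 1, 2636 in set 2 and 27 with the series term, beside 915 over all hearts. That series had no animal under 200 among cSirt5-/- Sham hearts and none over 500 among control Sham hearts. In set 2 all control Sham hearts had numbers under 200 and both cSirt5-/- Sham hearts numbers over 500. Genotype and series therefore cannot be told apart in set 2. Endothelial markers summed to 19.9 to 25.8 kilocounts in control Sham and 15.7 to 19.9 kilocounts in cSirt5-/- Sham hearts, with 1 of 6 lower, and macrophage markers to 3.50 to 5.47 and 4.92 to 7.97 kilocounts, with 2 of 6 higher. All 4 atrial markers were at an unadjusted p under 0.05, with 1 called, Nppa at 2.10, beside Myl4 at 3.18, Myl7 at 4.36 and Sln at 4.45. Myl7, an atrial myosin light chain, counted 5554 and 4146 in cSirt5-/- Sham replicates 3 and 4, 3.38 to 692 in the other cSirt5-/- Sham hearts and 0 to 629 in control Sham hearts. Without these 2 hearts, a setting chosen after the data were seen, 1 of the 5 members was called, Slc25a42 at -0.56 (adjusted p = 0.0747), and 515 of all genes. The 4 adipocyte markers had a median of 2.46, with 1 called (Adipoq, 2.89). Their part in these differences was not tested.

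**Figure D4:**
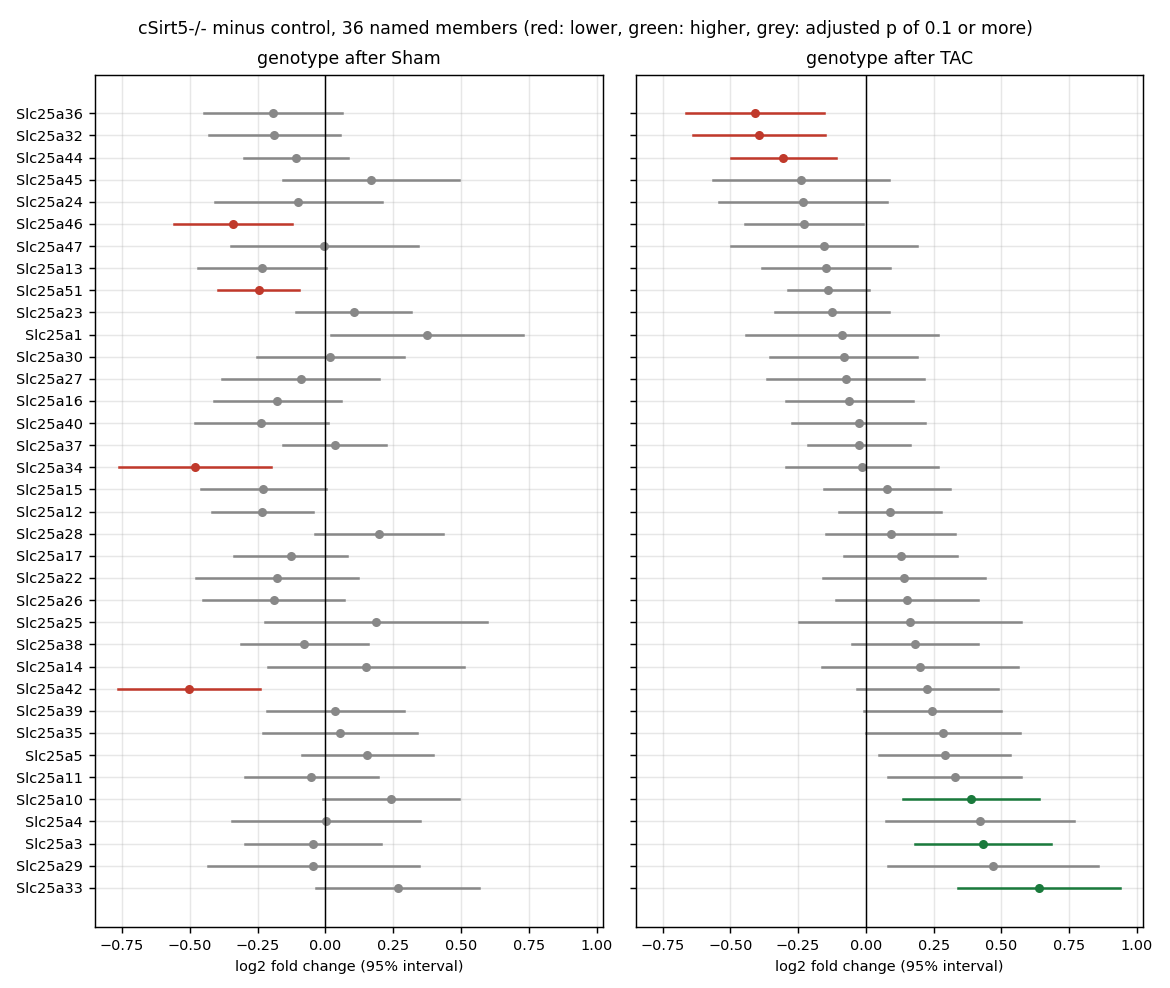
Log2 fold change of cSirt5-/- against control with its 95% interval for the 36 expressed members, after Sham (left) and after TAC (right), in the order of the values after TAC. Slc25a33, Slc25a3 and Slc25a10 are higher and Slc25a36, Slc25a32 and Slc25a44 lower after TAC.

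Following TAC 3 of 44 members were higher and 3 of 44 were lower in cSirt5-/- than in control hearts, beside 4.97% and 5.06% of all genes. One member, Slc25a33, was a DEG, against 3.25% of all genes. The 2 carriers of pyrimidine nucleotides were called in opposite directions, but Slc25a36 was not called when the libraries labelled cSirt5-/- TAC replicates 2 and 4 were left out. Slc25a33 (chromosome 4, 149828493 to 149858734) counted 319 to 677 (median 392.5) in control TAC and 464 to 797 (median 665) in cSirt5-/- TAC hearts, where 1 control TAC heart, replicate 4, lay above the lowest cSirt5-/- hearts. Its log2 fold change was 0.64 ± 0.15 (SE, n = 6 per group; limma adjusted p = 0.0108), with 0.44 in set 1 and 0.74 in set 2. Slc25a36 (chromosome 9, 96957014 to 96993210) counted 1228 to 1802 (median 1427) and 764 to 1262 (median 1210.5), with overlap, at -0.41 ± 0.12 (adjusted p = 0.0477), with -0.18 in set 1 and -0.52 in set 2. Per kb, the log2 ratio of Slc25a33 to Slc25a36 averaged 0.19 ± 0.26 in Sham and -0.38 ± 0.58 in TAC hearts of controls (SD, n = 6), against 0.65 ± 0.41 and 0.67 ± 0.50 in those of cSirt5-/- mice.

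The upstream sequences of Slc25a3 and of the pair Slc25a33 and Slc25a36 are shown because Slc25a3 was called for TAC in control hearts and for genotype after TAC, and the pair was called in opposite directions for genotype after TAC. Each runs over the 250 bases before the RefSeq start of the gene (promoter table of build GRCm38.p6) and matched GRCm39 once, at chr10:90959830-90960079, minus strand, chr4:149858725-149858974, minus strand and chr9:96993095-96993344, minus strand. The gene spans of the deposited table reach to 90959921, 149858734 and 96993210, so that part of each stretch lies inside the span of its gene. Capitals mark a match to the NRF1 motif (GCGC, any base, TGCGC) in Slc25a3, and to the E-box CACGTG in the other 2, with both strands searched.
Slc25a3: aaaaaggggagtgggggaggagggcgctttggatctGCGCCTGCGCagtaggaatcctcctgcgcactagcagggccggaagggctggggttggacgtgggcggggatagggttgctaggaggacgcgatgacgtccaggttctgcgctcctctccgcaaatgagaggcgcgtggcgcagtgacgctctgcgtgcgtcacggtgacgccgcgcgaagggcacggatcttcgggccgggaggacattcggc
Slc25a33: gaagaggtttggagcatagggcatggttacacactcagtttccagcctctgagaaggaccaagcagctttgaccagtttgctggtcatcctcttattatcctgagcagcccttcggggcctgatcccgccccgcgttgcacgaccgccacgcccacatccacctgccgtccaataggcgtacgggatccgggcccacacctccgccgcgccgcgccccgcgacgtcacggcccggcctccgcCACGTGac
Slc25a36: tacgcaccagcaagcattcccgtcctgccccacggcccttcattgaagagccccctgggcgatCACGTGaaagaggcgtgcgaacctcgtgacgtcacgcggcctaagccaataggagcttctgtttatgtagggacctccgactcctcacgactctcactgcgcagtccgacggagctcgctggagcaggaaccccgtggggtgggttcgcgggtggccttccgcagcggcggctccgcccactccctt

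A promoter sequence was found for 28 of the 36 expressed members. The NRF1 motif occurred in 1 of these 28 members, Slc25a3, and in 4.23% of the 27025 genes of the table. CACGTG occurred in 6 of 28 (Slc25a1, Slc25a13, Slc25a14, Slc25a15, Slc25a33 and Slc25a36) and in 6.86% of genes. The motif TNAAGGTCA of estrogen-related receptors occurred in 0 of 28 and in 1.302% of genes. Among the 10 members lower following TAC in control hearts that had a promoter sequence, 1 held the NRF1 motif and 2 held CACGTG. In the printed sequences the match ended 204 bases before the RefSeq start in Slc25a3, 2 in Slc25a33 and 181 in Slc25a36, and no matches overlapped. A match in the letters does not show binding.

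Slc25a3 counted 23009 to 36607 (median 31402) in control TAC and 33121 to 51868 (median 41011) in cSirt5-/- TAC hearts, at 0.43 ± 0.12 (SE, n = 6 per group; limma adjusted p = 0.0353). The value was 0.52 in set 1 and 0.39 in set 2, and the groups overlapped in part. Slc25a10, the dicarboxylate carrier, counted 279 to 380.4 (median 291) and 325 to 559 (median 396) and was higher by 0.39 (adjusted p = 0.0559). Lower members were the folate/FAD carrier Slc25a32, which counted 644 to 808 (median 719) and 407 to 672 (median 564), and fell by 0.39 (adjusted p = 0.0457), and the branched-chain amino acid carrier Slc25a44, which counted 555 to 717 (median 651) and 439 to 642 (median 527) and fell by 0.30 (adjusted p = 0.0511). Slc25a4 was at 0.42 with an interval of 0.07 to 0.77 (groups overlapping, limma adjusted p = 0.146, DESeq2 adjusted p = 0.0279). The groups overlapped for Slc25a10, Slc25a32 and Slc25a44 as well. For Slc25a4 the highest cSirt5-/- TAC hearts were the libraries labelled replicates 2 and 4, at 137917 and 170354. The others counted 98421 to 137570, against 63515 to 112698 in control TAC hearts. The Slc25a4 difference is not given without replicates 2 and 4.

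Without the libraries labelled cSirt5-/- TAC replicates 2 and 4, 1 of the 6 calls following TAC was left (663 of all genes, against 2431 with them), Slc25a33 at 0.56 (adjusted p = 0.0836), while Slc25a3 was at 0.37 (adjusted p = 0.17) and Slc25a36 at -0.32 (adjusted p = 0.204). Leaving out cSirt5-/- TAC replicate 4 alone gave 3 calls (1328 of all genes). Over the 24 fits without 1 heart, all called Slc25a3 and Slc25a33, 23 called Slc25a32, 21 called Slc25a36 and Slc25a44, and 19 called Slc25a10. All 6 kept their sign in both library sets, with 0 called in set 1 and 5 in set 2. In set 1 the control TAC and cSirt5-/- TAC hearts came from different series of animal numbers. Genotype and series therefore cannot be told apart there. Slc25a33 remained called with animal series as a term (0.70, adjusted p = 0.0296). The only series shared by the TAC groups held cSirt5-/- TAC replicates 1 and 2, and this value is not given without replicate 2. The endothelial markers summed to 19.5 to 25.9 kilocounts in control TAC and 14.0 to 24.2 kilocounts in cSirt5-/- TAC hearts, with 2 of 6 lower, and the cardiomyocyte markers to 1293 to 2215 and 1513 to 2784 kilocounts, with 1 of 9 higher (Tnni3) and 1 lower (Ttn). Of 5 smooth muscle and pericyte markers 1 was higher (Acta2, 0.86) and 2 were lower (Myh11, -0.52, and Pdgfrb, -0.38), at a summed level of 25.1 to 30.6 and 20.2 to 27.6 kilocounts. Of 6 macrophage markers 2 were higher (Cd68, 0.66, and C1qa, 0.57), at 3.57 to 7.26 and 6.00 to 8.25 kilocounts. Their part in these differences was not tested.

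**Figure D5:**
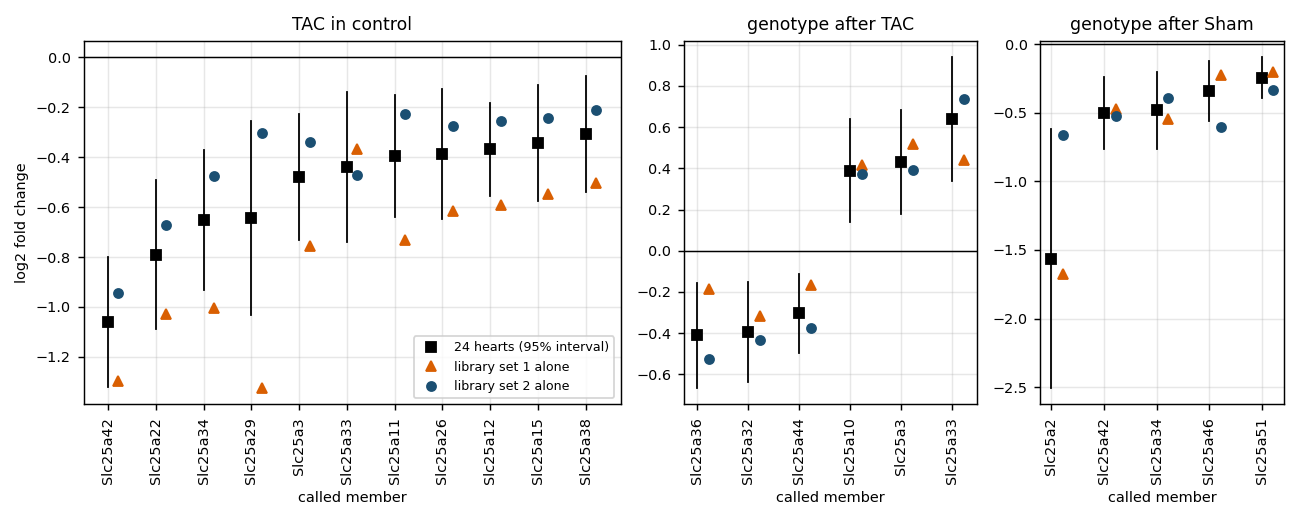
Log2 fold change of the called members over all 24 hearts (squares with the 95% interval) and within library set 1 (triangles) and set 2 (circles), for TAC in control and for cSirt5-/- against control after TAC and after Sham. All points of a member lie on one side of 0.

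Family proteins with other symbols were followed with the same fit. Ucp3, the uncoupling protein of muscle, was lower following TAC in control hearts at -1.23 ± 0.34 (SE, n = 6 per group; limma adjusted p = 0.0192), from 1040.0 to 3517 (median 1434) to 238 to 1319 (median 717). Ucp2 was higher in the knockout after Sham surgery, by 1.11 (adjusted p = 0.00187). Following TAC the difference was 0.61 (adjusted p = 0.0422), and 0.54 without cSirt5-/- TAC replicates 2 and 4 (adjusted p = 0.153). It counted 830.0 to 1511 (median 1185) in control Sham and 1862 to 3363 (median 2543) in cSirt5-/- Sham hearts, without overlap. Ucp2 is also expressed by immune cells, and 2 of 6 macrophage markers were higher in the knockout, both after Sham and with TAC. Those called after TAC, Cd68 and C1qa, were highest in the library labelled cSirt5-/- TAC replicate 4. The part of macrophages in the Ucp2 differences was not tested. Mtch2, an outer membrane protein of the family, was higher in cSirt5-/- hearts after TAC (0.30, adjusted p = 0.0454, and 0.25, adjusted p = 0.223, without the same libraries), and Mtch1 was not called.

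Among 13 genes of the machinery that imports carriers, 0 were called following TAC in control hearts by limma, with 1 at an unadjusted p under 0.05. Of all genes, 6.91% were lower and 6.99% higher in this comparison. After TAC 2 of the 13 were higher in cSirt5-/- than in control hearts, beside 4.97% of all genes. They were Timm10 (0.56) and Timm13 (0.71), which chaperone carriers between the membranes, with the library labelled cSirt5-/- TAC replicate 4 highest for both. Without the libraries labelled cSirt5-/- TAC replicates 2 and 4 they were at 0.38 (adjusted p = 0.176) and 0.52 (adjusted p = 0.0493). Agk, part of the carrier translocase, was lower after Sham (-0.30), as 1 of 13 beside 1.55% of all genes. Of 21 other mitochondrial transport genes, 7 were lower and 2 higher following TAC in control hearts, beside 6.91% and 6.99% of all genes. The lower genes were Abcb8 (-0.56), the pyruvate carrier subunit Mpc2 (-0.54), Sfxn2 (-0.54), Sfxn4 (-0.42), the outer membrane channels Vdac1 (-0.36) and Vdac3 (-0.41) and the calcium uniporter Mcu (-0.29). The higher genes were Micu2 (0.29), a uniporter regulator, and Sfxn3 (0.46). In cSirt5-/- against control hearts, 1 of the 21 was lower after Sham, Mcu (-0.40), beside 1.55% of all genes. After TAC 4 were higher, Mpc2 (0.53), Smdt1 (0.52), Vdac2 (0.36) and Vdac3 (0.44), beside 4.97% of all genes. Without the libraries labelled cSirt5-/- TAC replicates 2 and 4, Vdac2 (0.34) and Vdac3 (0.43) were still called, while Mpc2 (0.43) and Smdt1 (0.34) were not.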

How the data were processed

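Whole-heart RNA was used by the authors for directional libraries sequenced in pairs; reads were trimmed with Trim Galore and aligned with STAR to GRCm39. The counting program is not given in the sources used here. The deposited values are normalized counts (a signal per gene), which the authors made by dividing counts by DESeq2 size factors after keeping genes with at least 10 reads. The table also holds the authors' own comparisons (fold changes, standard errors and p-values), which were not used. Dividing by a common step gave whole reads within 0.001 for 100% of values, and these reads served DESeq2 1.42.0 and edgeR 4.0.16 as alternatives.

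limma 3.58.1 (R 4.3.3) was run on log2(normalized count + 1) of the 24 libraries, with a mean-variance trend and 1 term per group. No filter on low values was used, and p-values were adjusted after Benjamini-Hochberg over the 24239 genes. A gene was called at an adjusted p under 0.1, and a DEG also changed more than 1.5-fold. These thresholds are the study's. Fold changes refer to the log2(value + 1) scale, which understates the change of low genes. Labels give the replicate numbers within a group, and p-values measure the spread between these hearts. The script was tested on simulated data. Alternatives were a pseudocount of 0.5 or 5, a mean of at least 10, TMM, only the groups compared, a replicate block, the library set and animal series, and leaving out libraries.

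Members and lists were chosen with earlier results of these data known. Members with a mean of at least 50 were named, those called and the 6 highest per kb with values per group. Coordinates are those of the deposited table. Transcript lengths come from GENCODE M39. 3 genes, 2 of them of the family, are not reported here. Figures used Python 3.11.15 and matplotlib 3.10.9.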

Additional observations from a re-analysis of the deposited data

Results flagged for a closer look

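Among 144 groups of 6 hearts (36 expressed members in 4 groups), 8 held a heart that stood apart from the other 5. Chance gives about 1 in 20 groups, and 8 of 144 is near that share. Of the 8, 5 were the library labelled cSirt5-/- TAC replicate 4, which also had Sirt5 in the control Sham range. It was highest for Slc25a34 (4048, the others 2314 to 2960), Slc25a39 (4324, the others 2472 to 3024) and Slc25a28 (948, the others 549.5 to 668), and lowest for Slc25a40 (198, the others 312 to 373) and Slc25a24 (163, the others 258 to 302), all as normalized counts. In control TAC hearts, replicate 2 was highest for Slc25a22 at 975 (the others 579 to 727), and replicate 4 for Slc25a33 at 677 (the others 319 to 435). In cSirt5-/- Sham hearts, replicate 5 was lowest for Slc25a27 at 100.2 (the others 142 to 166). None of the interactions of genotype and TAC was called by limma.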

How the results depend on the processing

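Of 11 members called for TAC in control hearts, library set 2 alone gave 2 and the animal series as a term 7; leaving out 1 library gave 7 to 12. For TAC in cSirt5-/- hearts, 0 members became 1 with DESeq2, 1 with the animal series and 0 to 2 with 1 library left out. The count was 2 without the 2 libraries labelled cSirt5-/- TAC whose Sirt5 was in or above the control range. For genotype after Sham, 5 became 0 in library set 1 alone (0 of all genes called) and 0 with the animal series (27 of all genes). The count was 1 without the 2 cSirt5-/- Sham hearts highest in Myl7 (515 of all genes), an alternative added after the data were seen. With 1 library left out it was 0 to 5 (293 to 1710 of all genes). For genotype after TAC, 6 became 10 with DESeq2, 2 with only the groups compared, 0 in library set 1 alone (24 of all genes), 1 with the animal series, 1 without the 2 cSirt5-/- TAC libraries, and 3 to 8 with 1 library left out. For the interaction, 0 became 1 with DESeq2 and 1 with the replicate block, and 0 to 1 with 1 library left out. The cause was not tested. No called member changed direction in any setting. Replicate numbers did not pair hearts: the correlation of deviations ran from -0.385 to 0.45 over 36 pairs, 11 of which were over 0.1, and 4 of 24 libraries correlated best with their own number. Under the replicate block, members called were 12 for TAC in control. TMM moved the median of all genes by at most 0.02. With 6 hearts a group, members of low count could not show small changes.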
